A study of Mus musculus with 4 samples.

Results

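The type I and type II keratin gene clusters were described in whole-genome methylation data from male germ cells that lack Np95 and from their controls. The members were non-overlapping 5-kb windows of mm10 in an interval of chromosome 11, positions 99000000 to 100300000, which holds the type I keratin genes and the keratin-associated protein genes, and in an interval of chromosome 15, positions 101340000 to 102040000, which holds the type II keratin genes. A window counted where at least 5 CpGs had a value in all 4 samples. This left 256 of 260 possible windows in the type I interval and 139 of 140 in the type II interval, 395 of the 455671 such windows of the whole series. The intervals were chosen by position and the windows by whether they had values, and no methylation level entered the choice, but the clusters were picked with earlier results of these data known. The windows just inside the minimum had 6 CpGs in the type I interval and 7 in the type II interval, and one of them, chr11:99715001-99720000, had 48.02% and 50.04% in the knockouts against 83.9% and 90.7% in the controls. Just outside, chr11:99800001-99805000 with 4 CpGs had 42.3% and 37.6% in the knockouts against 86.1% and 89.5% in the controls.

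The knockout samples were 2 preparations of male germ cells from testes of Np95fl/fl:Stra8-Cre mice, aged 21 days, and the controls were 2 preparations from Np95fl/fl mice of the same age. Both genotypes carry the floxed Np95 allele. Stra8-Cre is a recombinase driven by the Stra8 promoter, which is active in germ cells before meiosis, and Np95, also named Uhrf1, brings the maintenance methyltransferase Dnmt1 to newly copied DNA. The labels do not tell whether both preparations of a genotype came from different mice, so the spread between preparations may be technical. The p-values of single windows and gene bodies below rest mostly on a variance pooled over all regions of a kind. They do not measure the spread between the preparations at that region. Germ cells were freed from tubules picked by hand, and cells of the space between the tubules were sieved off. Sertoli cells lie inside the tubules and do not carry the deletion, and in bulk DNA a lower level in every cell and a mixture of affected and unaffected cells cannot be told apart.

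Keratins are the intermediate filament proteins of epithelia, and a filament needs one acidic type I keratin and one basic type II keratin. The genes of each type lie side by side in 1 cluster, and pairs of them mark epithelial layers: Krt5 and Krt14 the basal layer of the epidermis, Krt1 and Krt10 the layers above it, Krt8 and Krt18 simple epithelia, and the hair keratins the hair shaft and its inner root sheath. Keratin-associated proteins, encoded by the Krtap genes among the type I keratins, cross-link hair keratin filaments. The methylation of a gene says nothing here about its expression, which these libraries do not measure.

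The table lists percent methylated reads per cytosine with no read counts, so the depth behind each value is unknown. Between 28999710 and 29774194 cytosines had a value per sample, and of the cytosines listed in the type I and type II intervals 67.3% and 79.96% had a value in all samples. The starts of 8 germ cell genes that are known as unmethylated in germ cells and methylated in somatic tissues (Ddx4, Dazl, Mael, Sycp3, Sycp1, Tdrd1, Tex101 and Hormad1) had mean levels of 10.4% to 17.4% in knockouts and 4.10% to 10.5% in controls. Both knockouts lay above both controls at 7 of the 8, against 10.7% of all gene starts tested, and overlapped with them at Ddx4. The part of this difference in the results below was not tested.

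The 300-base promoter sequences below, from 250 bases before to 50 bases after the gene start, are from RefSeq on GRCm38.p6, the assembly of mm10, and are written 5′ to 3′ on the gene's strand with each CG in capitals. Such a sequence was listed for 57 of the 76 protein-coding keratin and keratin-associated genes of the intervals. The sequences of Krt25 and Krt27, keratins of the inner root sheath, and of Krtap17-1, a keratin-associated protein gene, are shown because these starts had low levels in controls, Krt25 and Krt27 in a stretch of the cluster with lower control levels and Krtap17-1 among highly methylated genes.
Krt25, chr11:99322902-99323201, minus strand: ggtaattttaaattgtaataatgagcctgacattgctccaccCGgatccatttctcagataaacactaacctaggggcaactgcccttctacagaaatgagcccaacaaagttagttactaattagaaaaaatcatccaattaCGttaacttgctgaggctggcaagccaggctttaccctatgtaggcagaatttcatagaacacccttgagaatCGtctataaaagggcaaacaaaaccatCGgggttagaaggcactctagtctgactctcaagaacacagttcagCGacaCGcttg
Krt27, chr11:99351069-99351368, minus strand: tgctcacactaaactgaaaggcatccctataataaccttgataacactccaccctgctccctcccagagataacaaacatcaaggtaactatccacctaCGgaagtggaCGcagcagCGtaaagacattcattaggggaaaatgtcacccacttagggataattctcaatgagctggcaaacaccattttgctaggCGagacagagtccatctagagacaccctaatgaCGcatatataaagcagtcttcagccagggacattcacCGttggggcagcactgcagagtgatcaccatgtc
Krtap17-1, chr11:99993945-99994244, minus strand: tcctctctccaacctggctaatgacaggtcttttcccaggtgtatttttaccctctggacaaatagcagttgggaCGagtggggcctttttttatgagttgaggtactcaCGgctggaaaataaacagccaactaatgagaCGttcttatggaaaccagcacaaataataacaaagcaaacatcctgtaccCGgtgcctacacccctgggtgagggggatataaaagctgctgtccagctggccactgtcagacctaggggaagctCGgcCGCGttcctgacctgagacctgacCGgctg
Those of Krt39, a hair keratin, Krt13, a keratin of the lining of the mouth and oesophagus, and Krt5, the basal keratin of the epidermis, are shown because their starts were highly methylated in controls and lower in knockouts.
Krt39, chr11:99521289-99521588, minus strand: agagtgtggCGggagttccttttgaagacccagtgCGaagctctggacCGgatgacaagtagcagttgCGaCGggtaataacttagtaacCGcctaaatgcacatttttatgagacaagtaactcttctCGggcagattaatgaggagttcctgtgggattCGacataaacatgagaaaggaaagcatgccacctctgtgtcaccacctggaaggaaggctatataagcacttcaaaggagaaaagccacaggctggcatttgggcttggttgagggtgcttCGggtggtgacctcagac
Krt13, chr11:100121517-100121816, minus strand: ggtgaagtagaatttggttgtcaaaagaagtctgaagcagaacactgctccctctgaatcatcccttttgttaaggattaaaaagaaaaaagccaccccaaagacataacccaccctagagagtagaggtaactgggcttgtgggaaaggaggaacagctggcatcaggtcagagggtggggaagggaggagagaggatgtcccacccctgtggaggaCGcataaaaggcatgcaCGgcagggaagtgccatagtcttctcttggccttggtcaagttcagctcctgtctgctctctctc
Krt5, chr15:101712856-101713155, minus strand: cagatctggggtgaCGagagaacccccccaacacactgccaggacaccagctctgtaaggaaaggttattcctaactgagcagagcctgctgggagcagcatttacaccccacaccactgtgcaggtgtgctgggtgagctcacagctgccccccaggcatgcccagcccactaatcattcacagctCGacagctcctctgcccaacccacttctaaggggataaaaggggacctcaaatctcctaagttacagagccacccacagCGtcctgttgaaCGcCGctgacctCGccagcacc
Those of Krt7, Krt8 and Krt18, keratins of simple epithelia, are shown because their starts were at 25.4% or less in every sample.
Krt7, chr15:101412153-101412452, plus strand: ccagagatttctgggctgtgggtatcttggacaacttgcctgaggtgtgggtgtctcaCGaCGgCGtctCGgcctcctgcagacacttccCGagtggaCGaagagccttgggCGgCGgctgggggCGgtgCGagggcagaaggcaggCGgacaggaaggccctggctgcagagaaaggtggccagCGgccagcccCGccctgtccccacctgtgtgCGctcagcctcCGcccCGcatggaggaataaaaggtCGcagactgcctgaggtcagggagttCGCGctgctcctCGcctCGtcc
Krt8, chr15:102004293-102004592, minus strand: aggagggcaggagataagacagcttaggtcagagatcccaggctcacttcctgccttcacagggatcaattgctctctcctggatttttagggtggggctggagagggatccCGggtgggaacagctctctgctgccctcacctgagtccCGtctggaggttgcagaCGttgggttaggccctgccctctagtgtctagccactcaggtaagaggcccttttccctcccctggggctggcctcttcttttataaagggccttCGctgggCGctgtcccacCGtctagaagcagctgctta
Krt18, chr15:102027966-102028265, plus strand: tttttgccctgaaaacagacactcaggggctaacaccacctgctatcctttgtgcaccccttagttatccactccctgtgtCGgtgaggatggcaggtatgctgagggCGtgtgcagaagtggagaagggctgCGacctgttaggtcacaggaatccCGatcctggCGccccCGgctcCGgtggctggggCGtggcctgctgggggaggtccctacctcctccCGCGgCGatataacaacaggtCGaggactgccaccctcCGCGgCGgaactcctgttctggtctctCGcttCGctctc
All 245 CG of the 57 promoters matched a CpG listed in the methylation table. The keratin and keratin-associated promoters held a median of 3 CG, against 7 over all 32851 promoters listed. The letters TATAAA, searched on both strands, occurred in 39 of the 57 (68.4%) and in 4473 of all 32851 promoters (13.6%). The sequences above differ widely in CG: Krt13 has 2 and Krt5 has 6, whereas Krt18 has 17 and Krt7 has 21.

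Methylation of both clusters was lower in the knockouts. The mean level over windows of the type I interval was 41.4% and 41.95% in the knockouts and 78.3% and 82.9% in the controls. As group means this was 41.7% ± 0.375 in knockouts and 80.6% ± 3.24 in controls (SD, n = 2 each), a difference of -38.9 percentage points. The knockout mean was 51.7% of the control mean, which is called the retained share below. In the type II interval the windows averaged 38.7% and 39.6% in the knockouts and 75.7% and 79.5% in the controls. The group means were 39.2% ± 0.661 in knockouts and 77.6% ± 2.68 in controls (SD, n = 2 each), a difference of -38.4 points with 50.5% retained. In both clusters the knockouts lay close together and far below the controls, of which replicate 2 was the higher. The exact two-sided permutation test over samples gave p = 0.3333 for each interval, the smallest value that 2 against 2 samples can give. Over all windows of the series the means were 42.2% in knockouts and 78.9% in controls, a difference of -36.8 points with 53.4% retained.

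**Figure D1:**
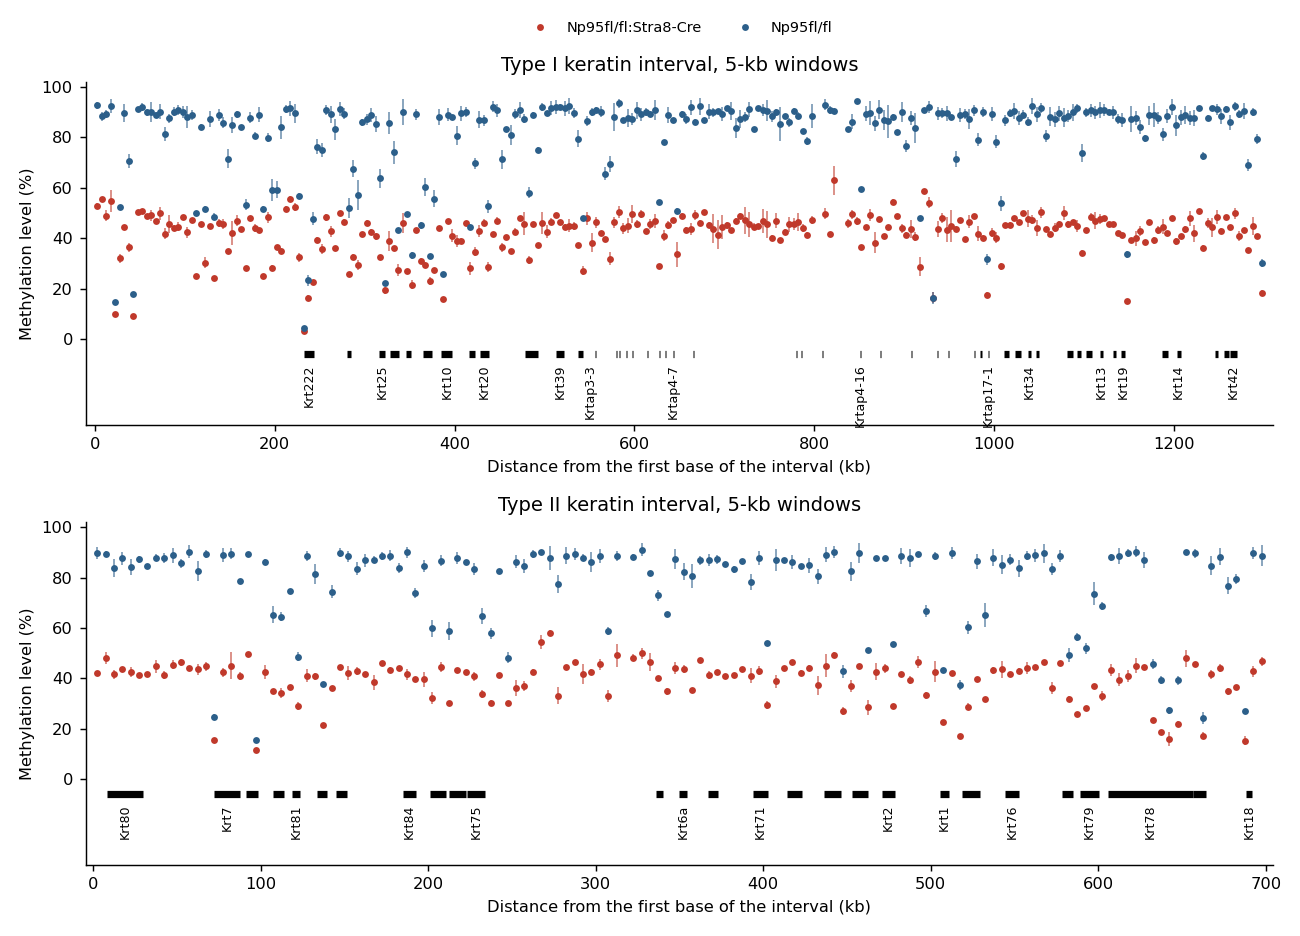
Mean methylation level of each 5-kb window (vertical axis, %) by distance from the first base of the type I (upper) and type II (lower) interval (horizontal axis, kb), for knockouts (red) and controls (blue). Points are means of 2 samples and bars run from the lower to the higher sample. Black blocks are keratin and keratin-associated genes, some of them named. The median window lies at 44.1% in knockouts and 88.1% in controls of the type I interval. In the type II interval it lies at 41.6% in knockouts and 86.2% in controls. Dips to low levels in both genotypes lie around Krt222, Krt25 and Krtap17-1 in the upper panel and Krt7, Krt87 and Krt8 in the lower. Other dips of the upper panel lie at genes that are not keratins and not drawn. These are Top2a (9.82% in knockouts and 14.5% in controls), Igfbp4 (9.09% in knockouts and 17.9% in controls) and the pseudogene Gm11560.

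Within the clusters the levels varied between stretches of genes, while the retained share varied little. Along the type I interval the lowest knockout and control levels were found between Krt222 and Krt40, where 63 windows averaged 37.8% in both knockouts and 71.9% and 76.8% in the controls. The 88 windows of the keratin-associated genes, with a median of 31 listed CpGs the poorest stretch in CpGs, averaged 43.5% and 44.2% in the knockouts against 82.0% and 86.2% in the controls. The 21 windows of the hair keratins Krt33a to Krt36 were the highest of the interval in both genotypes, at 45.0% and 46.4% in the knockouts against 85.5% and 90.8% in the controls. The share retained in these 3 stretches was 50.8%, 52.1% and 51.8%. From Krt13 to Krt42, a stretch of epithelial keratins that includes Krt14, Krt16 and Krt17, 37 windows retained 49.98%, at 41.8% and 42.3% in the knockouts against 81.8% and 86.6% in the controls. The first 47 windows, before Krt222, hold no keratin gene and retained 53.6%.

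Along the type II interval the shares retained lay between 49.4% and 51.2% in 6 stretches. The 18 windows around Krt80 and Krt7 had 40.9% and 43.1% in the knockouts against 81.3% and 85.6% in the controls. The 22 windows from Krt79 to Krt18, which end with the simple epithelial pair, were the lowest of the interval in both genotypes, at 34.6% and 34.9% in the knockouts against 67.2% and 71.8% in the controls. The 12 windows from Krt6b to Krt5, genes of stratified epithelia, lay between, at 40.7% and 41.97% in the knockouts against 80.1% and 83.7% in the controls.

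Single cytosines of the clusters were mostly highly methylated in controls and partly methylated in knockouts. In the type I interval 1.41% and 1.35% of the 17206 cytosines measured in all samples had a level of at least 80% in the knockouts, against 61.9% and 72.7% in the controls. In the type II interval, with 11771 such cytosines, it was 0.629% and 0.680% in the knockouts against 59.8% and 69.9% in the controls. Cytosines between 20% and 80% made up 79.7% ± 0.00411 in knockouts and 20.1% ± 7.30 in controls of the type I interval (SD, n = 2 each), and 78.7% ± 0.0601 in knockouts and 20.8% ± 6.52 in controls of the type II interval. Cytosines at exactly 0 made up 6.12% in knockouts and 6.53% in controls of the type I interval. The same shift occurred in the 2 Mb on both sides of the intervals. Beside type I, 2.12% in knockouts and 52.0% in controls were at 80% or more, and 60.8% and 15.9% between the limits. Beside type II it was 1.98% and 50.2% at 80% or more, and 60.8% and 17.6% between. Cytosines at exactly 0 made up 22.3% in knockouts and 21.9% in controls beside type I.

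The flanks, 2 Mb on both sides of each interval, were compared to see whether the clusters lost more than their surroundings. The 799 flank windows of the type I interval averaged 37.4% and 38.2% in the knockouts and 67.7% and 71.6% in the controls. The 761 flank windows of the type II interval averaged 37.5% and 38.1% in the knockouts and 67.7% and 71.0% in the controls. Over all windows both genotypes were higher inside the clusters than beside them, the controls by more than the knockouts. For the knockouts this order turned round without windows that hold a dense run of CpGs (defined below), with 42.1% and 42.7% inside against 43.1% and 44.0% in the flanks for type I and 40.1% and 41.2% inside against 41.8% and 42.6% in the flanks for type II. It also turned round with flanks weighted by CpG content and among windows with controls at 80% or more, and for type II with medians over windows and against the flank at lower coordinates alone. The loss inside was larger than in the flanks, with a difference of the 2 differences of -7.005 points for type I and -6.87 points for type II. The retained share was 51.7% inside and 54.2% in the flanks for type I, a difference of -2.49 points, and 50.5% inside and 54.5% in the flanks for type II, a difference of -4.02 points. Each of these 4 differences gave p = 0.3333 in the exact permutation test, the smallest possible, so none could pass a threshold of 0.05.

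The clusters hold fewer CpGs than both of their flanks combined, and the difference in points was smaller where windows of like CpG content or level were compared. A window had a median of 50 listed CpGs in the type I interval, 52 in the type II interval, 68 and 60 in their flanks and 35 in the whole series. The type II flank at higher coordinates was poorer in CpGs than the interval, with a median of 42, and against it alone the difference of the losses was -8.25 points, compared with -5.61 points against the flank at lower coordinates, with a median of 69. Dense runs, with 30 or more listed CpGs in 500 bp, lay in 3.13% of type I and 7.19% of type II windows, against 20.2% and 14.98% of their flank windows. Without windows that hold a dense run, the loss inside exceeded that of the flanks by less, with differences of -2.91 points for type I and -4.70 points for type II. With flank windows weighted to the CpG classes of the interval, an alternative chosen after seeing the data, the values were -2.31 and -4.19 points, and among windows with at least 80% in controls -2.72 and -3.30 points. With medians over windows in place of means they were -1.61 and -2.53 points.

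As a retained share, the difference between interval and flanks was -2.54 and -4.01 points for type I and type II without dense runs, -2.70 and -3.86 points with weighted flanks, and -3.17 and -4.36 points among windows with at least 80% in controls. With medians over windows it was -0.455 points for type I, where the exact permutation test of the log2 ratio gave p = 1, and -1.98 points for type II. In windows with under 40 CpGs the retained share was 51.7% inside the type I interval (84 windows) and 55.5% in its flanks (67 windows), and 50.7% inside the type II interval (34 windows) and 53.8% in its flanks (196 windows). In windows with 80 or more CpGs it was 54.6% inside the type I interval (22 windows) and 55.1% in its flanks, and 53.0% inside the type II interval and 55.7% in its flanks, but only 13 type II windows fall in this class. The intervals lay below their flanks in each of the 4 classes of CpG content.

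**Figure D2:**
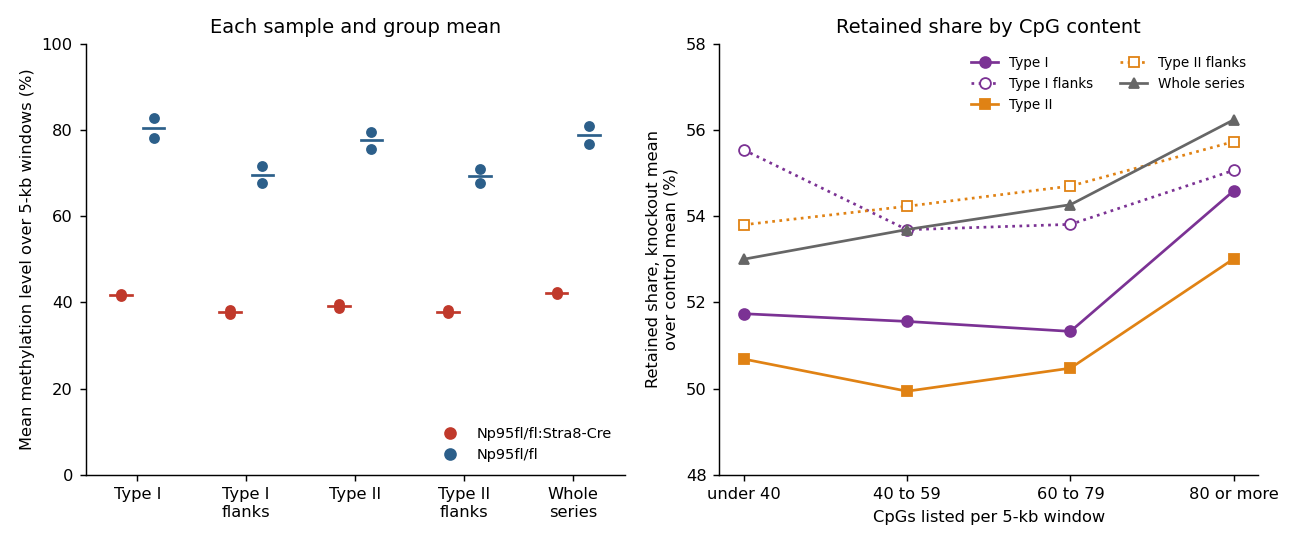
Left, mean methylation level over 5-kb windows (%) in each sample (points) and as a group mean (lines) for the type I and type II intervals, their flanks and the whole series, knockouts red and controls blue. Right, share of the control mean retained by the knockout mean (%, axis starting at 48) by listed CpGs per window, where the intervals (filled circles and squares) lie below their flanks (open symbols) in every class, with 51.7% against 55.5% at under 40 CpGs for type I.

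Single windows were tested with limma over all 455671 windows of the table, on log2 of the methylated over the unmethylated share with an offset of 0.01, and a window was called where the adjusted p (Benjamini-Hochberg) was under 0.05 and the genotypes differed by 10 points or more. In the type I interval 248 of 256 windows were called lower in knockouts and in the type II interval 136 of 139, against a background of 95.7% of all windows. None was called higher in the main setting (background 0.00593%). Centring each sample on its median over all windows left 0 lower and 42 type I and 29 type II windows higher. The median change over all windows was -2.95 on the log2 ratio scale before centring and 0.0578 after it. After centring 0.322% of all windows were lower and 22.4% higher, so the 42 of 256 and 29 of 139 are not above that share. Both knockouts lay below both controls in 255 of 256 and 139 of 139 windows (background 99.2%), and in 0 windows did both lie above both controls (background 0.135%). These shares are close to the background. The median difference over windows was -42.1 points in the type I and -42.6 points in the type II interval, against -40.0 points over all windows.

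The window with the greatest loss of the type I interval, chr11:99550001-99555000, holds Krtap3-3, which encodes a keratin-associated protein of the hair. It had 41.98% and 34.6% in the knockouts against 88.6% and 91.7% in the controls, a difference of -51.9 points (adjusted p = 2.05e-16, limma). The next, chr11:99440001-99445000 and chr11:99405001-99410000, hold no annotated gene and fell by 50.7 and 50.5 points. In the type II interval the greatest losses were -50.2 points at chr15:101590001-101595000, which holds no gene, -49.0 points at chr15:101950001-101955000 within Krt78, and -48.8 points at chr15:101505001-101510000 at the pseudogene Gm6042. The groups did not overlap in any of these 6 windows.

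The 11 windows that were not called had control means of at most 32.9%. The smallest loss of the type I interval was at chr11:99930001-99935000, which holds the pseudogene Gm11560 and a dense run of CpGs. It had 18.5% and 14.4% in the knockouts against 18.8% and 14.1% in the controls, a difference of -0.0013 points, and was the 1 window of the clusters whose groups overlapped. Next came chr11:99230001-99235000, which holds parts of Smarce1 and Krt222, with 3.09% and 3.06% in the knockouts against 4.44% and 4.59% in the controls, and chr11:99320001-99325000 at Krt25, with 20.7% and 17.9% in the knockouts against 22.2% and 21.8% in the controls. These windows already had low levels in controls. In the type II interval the smallest losses were at 3 keratin genes. The window at Krt87, chr15:101435001-101440000, had 11.5% and 12.02% in the knockouts against 15.1% and 15.9% in the controls. The window at Krt8, chr15:102000001-102005000, had 18.5% and 15.8% in the knockouts against 22.0% and 26.5% in the controls. The window at Krt7, chr15:101410001-101415000, had 15.7% and 15.4% in the knockouts against 23.4% and 25.9% in the controls. The groups did not overlap in these 3.

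Over whole gene bodies, from the annotated start to the annotated end, the keratin genes lost methylation without exception among those tested. Of the 76 protein-coding keratin and keratin-associated genes, 72 had enough CpGs, and the other 4 (Krtap4-13, Krtap9-1, Krtap31-2 and Krtap9-5) were not tested. By the same limma test over 19733 gene bodies, 69 of the 72 were called lower, against a background of 88.9%, and 0 were higher (background 0.0811%). Centring each sample on its median over all gene bodies left 23 of 46 type I and 5 of 26 type II interval bodies lower (background 12.4%). It left 6 and 1 higher (background 23.7%). The median change over all bodies was -1.71 on the log2 ratio scale before centring. All 53 keratin gene bodies were called lower, and of the keratin-associated genes 16 of 19. In all 72 the groups did not overlap, with both knockouts below both controls except at Krtap17-1 (background 96.4%). The median difference was -38.0 points over the 72 and -29.0 points over all gene bodies, whose median control level was 66.6%, against 78.7% for the 72.

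The basal pair, Krt5 and Krt14, was among those with the greatest losses. The body of Krt5 (chr15:101707069-101712905) had 40.1% and 42.2% in the knockouts against 84.6% and 89.7% in the controls. It fell by 46.0 points, or by 3.20 ± 0.31 (SE) on the log2 ratio scale (adjusted p = 4.61e-24, limma), the greatest loss of the type II interval. The body of Krt14 (chr11:100203162-100207510) had 39.0% and 41.0% in the knockouts against 82.1% and 89.2% in the controls and fell by 45.6 points. The bodies of Krt1 and Krt10, the pair of the upper epidermal layers, lost less. Krt1 had 27.2% and 28.1% in the knockouts against 52.5% and 53.3% in the controls, and Krt10 had 27.3% and 28.5% in the knockouts against 49.0% and 51.7% in the controls. Both were called lower, and both had lower control levels than the basal pair to start with. After centring on the sample medians over all gene bodies, the differences of Krt1 and Krt10 were 4.63 and 7.41 points. They thus lost less than those medians did.

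Of the simple epithelial keratins, Krt8 had 28.3% and 27.3% in the knockouts against 47.9% and 52.0% in the controls, one of the 3 smallest losses of the type II interval at -22.1 points. Its partner Krt18, a type I gene that lies beside Krt8 in the type II cluster, had 32.0% and 25.4% in the knockouts against 55.8% and 58.3% in the controls. Krt7, a keratin of glandular ducts, had 33.0% and 37.0% in the knockouts against 65.8% and 69.7% in the controls. Krt19, found in ducts and simple epithelia, had 23.8% and 24.6% in the knockouts against 49.3% and 52.5% in the controls, and Krt20, a keratin of the gut lining, had 38.5% and 40.8% in the knockouts against 69.8% and 74.3% in the controls. These 5 bodies were all called lower (background 88.9%), with differences between -32.8 and -22.1 points, while centring on the sample medians turned the sign for Krt8, Krt18 and Krt19.

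The keratins of other stratified epithelia spread over the range. Krt4 and Krt13, the pair of the mouth and oesophagus, differed from each other: Krt4 had 37.3% and 36.5% in the knockouts against 60.3% and 65.0% in the controls, and Krt13 had 48.4% and 52.1% in the knockouts against 89.6% and 94.7% in the controls. The stress and appendage keratins Krt6a, Krt16 and Krt17 resembled Krt13, with knockout means of 47.8%, 48.4% and 47.7% against control means of 86.6%, 91.7% and 91.6%. Krt2, of the outer epidermis, had 34.5% and 34.3% in the knockouts against 64.1% and 65.3% in the controls, and Krt9, of palm and sole skin, had 45.5% and 43.9% in the knockouts against 86.1% and 91.9% in the controls. Krt76, of the palate, fell by 43.2 points and was among the 3 greatest losses of the type II interval, with 42.9% and 45.0% in the knockouts against 84.4% and 89.9% in the controls. Krt80, which is widespread in differentiated epithelia, had 40.6% and 43.6% in the knockouts against 83.0% and 87.6% in the controls. Krt12, the keratin of the cornea, had 30.1% and 26.4% in the knockouts against 47.4% and 50.2% in the controls. All 10 were called lower (background 88.9%), with both knockouts below both controls (background 96.4%), while centring turned the sign for Krt4 and Krt12.

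The hair and inner root sheath keratins of the type I interval included the smallest loss of its keratins. All 13 bodies were called lower (background 88.9%), with a median of -41.3 points, and differences between -45.1 points at Krt39 and -13.7 points at Krt27. After centring on the sample medians Krt27 was higher by 16.2 points and was called higher. Krt39 had 47.5% and 46.7% in the knockouts against 90.1% and 94.2% in the controls. Krt35, a keratin of the hair matrix and cortex, had 34.3% and 38.9% in the knockouts against 76.7% and 81.3% in the controls. The inner root sheath keratins Krt25 to Krt28, which are neighbours, had low control means of 36.4% to 59.9% and knockout means of 22.7% to 32.7%. Krt25 itself had 27.0% and 25.4% in the knockouts against 42.8% and 46.7% in the controls, a loss that centring turned into a higher value. Its filament partner in the type II interval, Krt71, had 38.0% and 39.5% in the knockouts against 73.7% and 76.9% in the controls.

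The type II hair, inner root sheath and companion layer keratins were all 10 called lower (background 88.9%), with a median of -31.2 points. Krt83, a hair cortex keratin, lost most with 43.1% and 46.6% in the knockouts against 87.4% and 91.2% in the controls, a difference of -44.5 points. The hair keratins Krt87 and Krt81 lost least: Krt87 had 26.5% and 26.4% in the knockouts against 41.4% and 42.6% in the controls, and Krt81 had 34.4% and 28.6% in the knockouts against 52.3% and 54.4% in the controls. Both were called lower, at -15.5 and -21.8 points, and higher in sign after centring. Krt85 is not in the gene table used here, and Krt74 is listed there as a transcribed pseudogene and was not tested.

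The keratin-associated genes held both the greatest and the smallest changes among the 72 gene bodies. The body of Krtap3-3 (chr11:99550132-99550863), with 6 CpGs, had 42.7% and 33.7% in the knockouts against 93.3% and 93.03% in the controls, a difference of -55.0 points (adjusted p = 1.11e-22, limma). Krtap16-1 with 36.4% and 37.6% in the knockouts against 87.1% and 92.7% in the controls, and Krtap2-4 with 37.1% and 37.9% in the knockouts against 89.5% and 90.4% in the controls, followed at -52.9 and -52.5 points. Such short genes rest on few CpGs, a median of 11 listed per gene. The 3 bodies that were not called were those of Krtap17-1, Krtap4-1 and Krtap4-16, the lowest of the family in controls.

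Krtap17-1 (chr11:99993232-99993994) had 3.31% and 2.11% in the knockouts against 0.961% and 1.89% in the controls, higher by 1.29 points, and passed the adjusted p alone (adjusted p = 0.000166, limma) but not the minimum of 10 points. Krtap4-1 had 11.9% and 9.50% in the knockouts against 16.5% and 19.0% in the controls, and Krtap4-16 had 26.1% and 25.6% in the knockouts against 35.7% and 31.4% in the controls. The groups did not overlap in any of the 3, and the differences of Krtap4-1 and Krtap4-16 were -7.05 and -7.75 points, which centring reversed. The Krtap genes are similar to each other in sequence, and how reads that match several copies were placed is not given in the sources used here.

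At gene starts, taken from 1000 bp before to 500 bp after the listed start, most starts of the clusters either lost methylation or were low in all samples. Krtap4-16, Krt79, Krt8, Krt72 and Krt75 had control means above 20% and were not called. Of these, Krt79 had 22.6% and 20.5% in the knockouts against 25.01% and 30.7% in the controls. Of 57 genes with a listed start, 54 were tested, in a limma fit over 14806 starts; Krtap3-2, Krtap31-2 and Krtap9-5 had too few CpGs. Of the 54, 40 were called lower in knockouts, against a background of 24% of all starts, and 0 higher (background 0.257%). Centring on sample medians left both counts as they were (background 23.7% lower and 0.311% higher). The median change over all starts was only -0.231 on the log2 ratio scale, or -0.425 points. Centring could thus remove little here, and the unchanged counts do not show a loss beyond that of other methylated regions. The calls at starts rest on a variance pooled over starts: with each start's own spread from 2 samples a group, 0 keratin starts and 1 of all 14806 were called. The median control level was 81.3% at the 54 starts and 2.54% at all starts.

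The high background of unmethylated starts makes the control level the first thing to compare. Only 9 of the 54 keratin and keratin-associated starts (16.7%) had a control mean under 20%, against 10997 of all 14806 starts (74.3%). At 80% or more were 27 of the 54 (50%), against 2570 of all starts (17.4%), and all 27 were called lower, as were all 2570. Between these limits 13 of 18 were called lower, against 79.2% of all such starts. Within a class of control level the keratin starts were thus called about as often as other starts. In the highest class the median level was 46.3% in knockouts and 88.7% in controls for the keratin starts, and 45.1% in knockouts and 88.7% in controls for all starts.

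**Figure D3:**
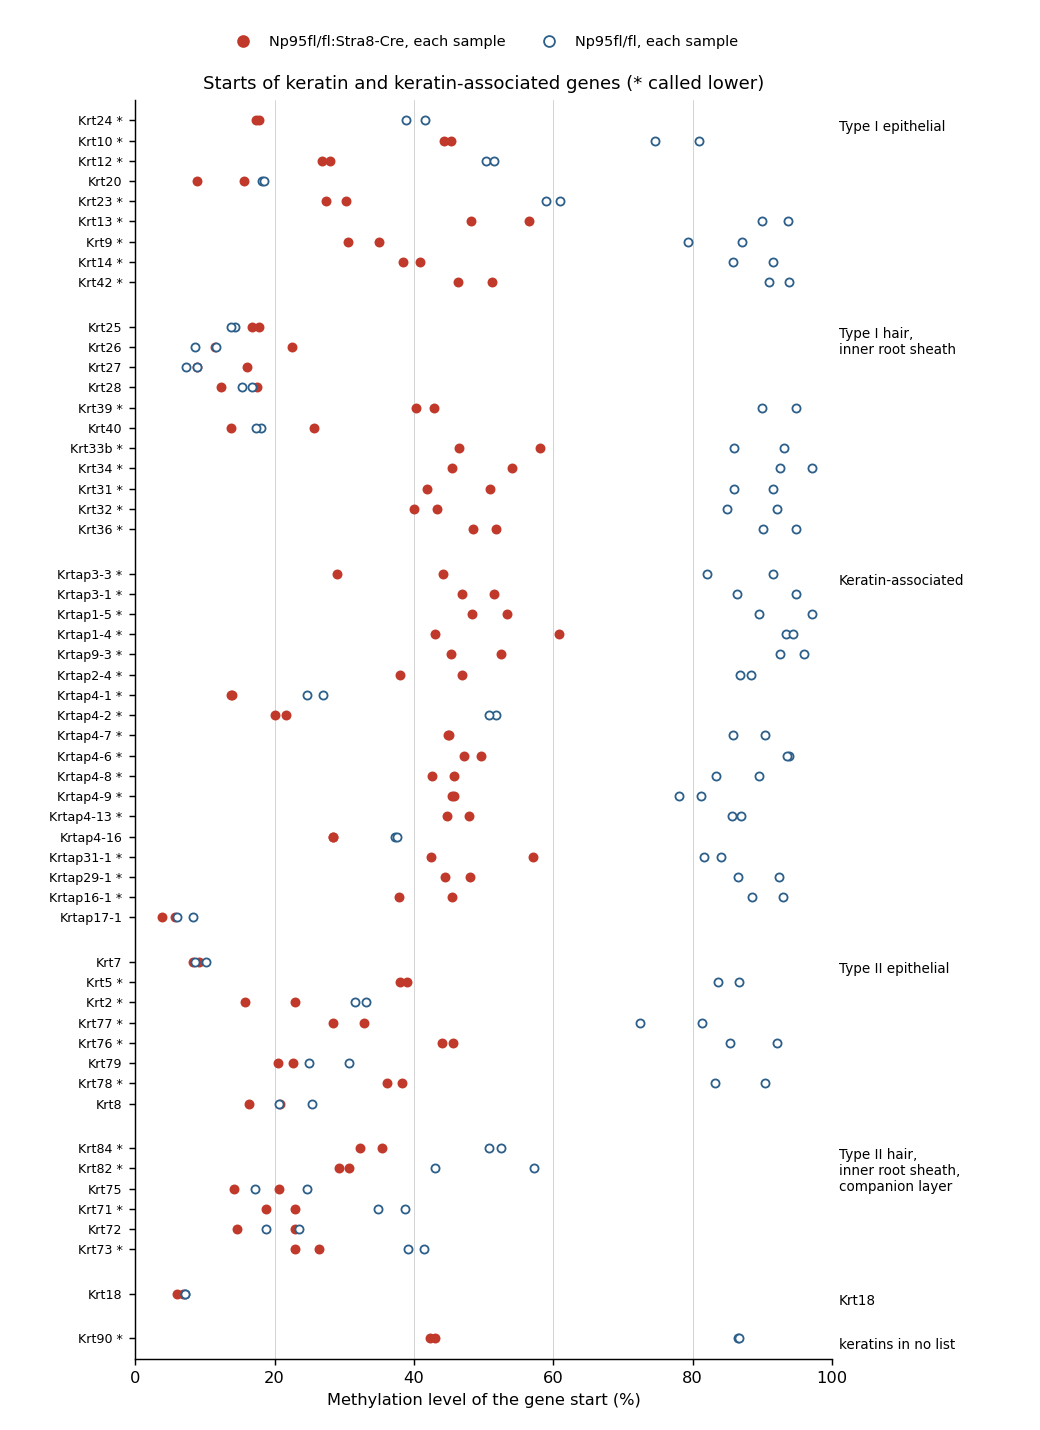
Methylation level (horizontal axis, %) of the starts of 54 keratin and keratin-associated genes in each knockout (filled red) and control (open blue) sample, by gene list, with an asterisk at the 40 called lower in knockouts. Starts with controls at 80% or more have knockouts at 28.9% to 60.9%, while the starts of Krt25 to Krt28, Krt40, Krt20, Krtap17-1, Krt7 and Krt18 are at 25.7% or less in every sample.

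The basal keratins had highly methylated starts. The start of Krt5 (chr15:101712405-101713905) had 38.0% and 38.9% in the knockouts against 83.7% and 86.6% in the controls, a difference of -46.7 points and a change of -3.11 ± 0.38 (SE) on the log2 ratio scale (adjusted p = 0.000142, limma). The start of Krt14 had 38.5% and 40.9% in the knockouts against 85.7% and 91.5% in the controls. The listed start of Krt14 lies 1480 bp inside the annotated end of the gene, and that of Krt10 8085 bp inside. Those of Krt12, Krt2, Krt36 and Krt78 also lie inside, by 334, 787, 3861 and 42337 bp. At Krt10, of the upper epidermal layers, the levels were 45.4% and 44.4% in the knockouts against 74.6% and 80.9% in the controls, also called lower.

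Other epithelial keratins with methylated starts were called lower too. The palm and sole keratin Krt9 had the greatest loss among type I epithelial starts, with 30.5% and 35.0% in the knockouts against 79.4% and 87.1% in the controls, a difference of -50.4 points. Krt13, whose promoter has only 2 CG, had 48.3% and 56.5% in the knockouts against 89.9% and 93.6% in the controls. Krt76 had 44.1% and 45.6% in the knockouts against 85.3% and 92.1% in the controls. Krt12, of the cornea, was intermediate, with 27.9% and 26.8% in the knockouts against 50.3% and 51.4% in the controls. Krt2 had 23.0% and 15.7% in the knockouts against 33.1% and 31.6% in the controls, and its call was lost without knockout replicate 2 or without either control. In these 5 genes both knockouts lay below both controls, as at 53.5% of all starts.

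The tested starts of simple epithelial keratins were at 25.4% or less in all samples and none was called. The start of Krt18 had 5.94% and 6.82% in the knockouts against 7.18% in both controls, that of Krt7 8.34% and 9.14% in the knockouts against 8.65% and 10.1% in the controls, and that of Krt20 8.88% and 15.5% in the knockouts against 18.2% and 18.5% in the controls. Krt8 had 20.8% and 16.4% in the knockouts against 20.7% and 25.4% in the controls. The groups overlapped at Krt7 and Krt8 and were separate at Krt18 and Krt20, with mean differences of -0.799 and -6.10 points. The bodies of these 4 genes differed by -32.8 to -22.1 points.

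The neighbouring inner root sheath keratins Krt25, Krt26, Krt27 and Krt28 had low starts without a loss. At Krt25 the level was 17.7% and 16.7% in the knockouts against 14.4% and 13.7% in the controls (adjusted p = 0.300, limma), and at Krt27 it was 16.0% and 8.84% in the knockouts against 7.23% and 8.81% in the controls (adjusted p = 0.137, limma). Both knockouts lay above both controls at these 2 of the 54 starts, against 10.7% of all starts. At Krt26 the levels were 22.5% and 11.4% in the knockouts against 8.57% and 11.6% in the controls, and at Krt28 17.5% and 12.3% in the knockouts against 15.3% and 16.7% in the controls. Krt26 was called higher when knockout replicate 2 was left out. The starts of the 8 germ cell genes also had higher means in knockouts, by the values given above, and the part of this in the levels of these keratins was not tested.

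The hair keratins further along the cluster had methylated starts. Krt39 had the greatest loss of any keratin start, with 40.3% and 42.8% in the knockouts against 89.95% and 94.8% in the controls, a difference of -50.8 points (adjusted p = 0.000142, limma). The other hair shaft keratins of the type I interval with a tested start, Krt31, Krt32, Krt33b, Krt34 and Krt36, had control means of 88.5% to 94.9% and knockout means of 41.7% to 52.3%, and all were called lower. So were all 2570 starts of the series with controls at 80% or more. Krt40, next to Krt39, was low and had 25.7% and 13.8% in the knockouts against 18.1% and 17.4% in the controls. In the type II interval the starts were intermediate: Krt71, the partner of the inner root sheath keratins, had 22.9% and 18.7% in the knockouts against 38.8% and 34.9% in the controls and was called lower, as were Krt73, Krt82 and Krt84. The calls of Krt73, Krt82 and Krt84 each ended when 1 sample was left out (knockout replicate 2 or control replicate 2 for Krt73, control replicate 2 for Krt82 and knockout replicate 1 for Krt84). Krt72 and Krt75 were not called, and their groups overlapped.

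Of 18 keratin-associated starts tested, 16 were called lower (background 24%), with a median of -42.1 points. Their median control level was 87.2%, and all 2570 starts of the series with controls at 80% or more were called lower. Krtap3-3 had 44.2% and 28.9% in the knockouts against 82.0% and 91.5% in the controls, a difference of -50.2 points, from 5 CpGs. Krtap4-1 was the lowest start called, with 13.7% and 14.0% in the knockouts against 26.9% and 24.7% in the controls. Krtap17-1 and Krtap4-16 were not called: Krtap17-1 had 5.72% and 3.88% in the knockouts against 6.07% and 8.36% in the controls, and Krtap4-16 had 28.4% in both knockouts against 37.2% and 37.6% in the controls. The call of Krtap31-1 ended without knockout replicate 1. The start of Krtap17-1 was thus lower and its body higher in knockouts, both by less than 3 points.

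The CpGs of the promoter sequences printed above show how much the levels varied along a start. In Krt39 all 9 CG of the sequence were measured, and they lay between 15.4% and 60% in the knockouts and between 77.8% and 100% in the controls. Knockout replicate 2 was above knockout replicate 1 at 6 of the 9. In Krt5 the 6 CG had 15.9% to 43.3% in the knockouts and 70.8% to 94.1% in the controls. No CpG of Krt39 or Krt5 had a knockout above a control.

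The low promoters had averages of at most 16.9% in every sample. The 17 CG of Krt18 had 0% to 10.9% in the knockouts and 0% to 7.29% in the controls, and averaged 1.34% and 2.01% in the knockouts against 1.92% and 1.32% in the controls. The 21 CG of Krt7 averaged 3.24% and 4.33% in the knockouts against 1.56% and 3.78% in the controls. The 6 CG of Krt27 lay between 1.92% and 19.2% in the knockouts and between 0% and 17.9% in the controls. In Krt25 the 6 CG averaged 16.9% and 14.0% in the knockouts against 6.87% and 6.1997% in the controls. The 8 CG of Krtap17-1 averaged 0.761% and 1.02% in the knockouts against 3.26% and 2.39% in the controls, and the 6 CG of Krt8 8.24% and 13.2% in the knockouts against 11.9% and 11.1% in the controls. These averages are descriptions of a few CpGs and were not tested.

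**Figure D4:**
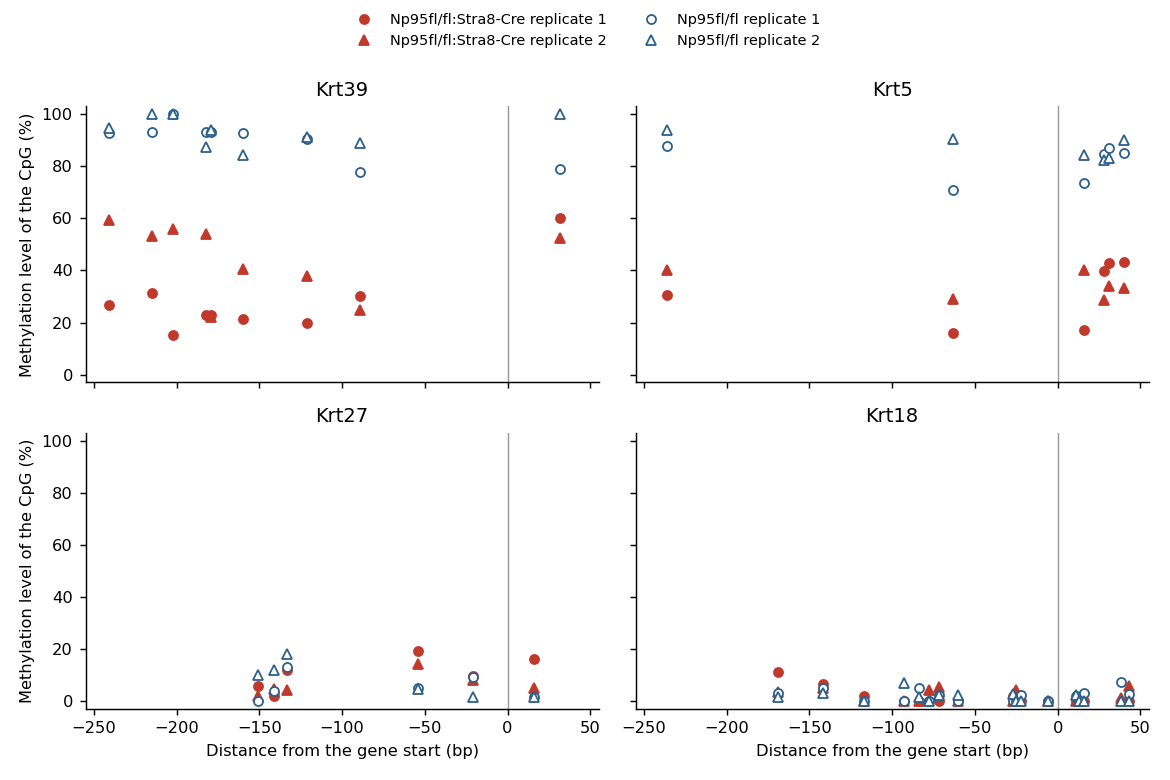
Methylation level (vertical axis, %) of each measured CpG of the printed Krt39, Krt5, Krt27 and Krt18 promoters by distance from the gene start (horizontal axis, bp, negative upstream), for each knockout (filled red) and control (open blue) sample, circles for replicate 1 and triangles for replicate 2. Knockouts lie between 15.4% and 60% and controls between 77.8% and 100% in Krt39, whereas no sample exceeds 19.2% in Krt27 or 10.9% in Krt18.

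For 19 keratin and keratin-associated genes no start was listed, so both ends of the gene are described without a test. In 6 of them one end averaged 24.1% or less in controls and the other 63.7% or more. At Krt19 the right end averaged 4.06% in knockouts and 7.32% in controls, and the left end 38.8% in knockouts and 89.6% in controls. At Krt87 the right end averaged 3.24% in knockouts and 2.33% in controls, and the left end 48.9% in knockouts and 89.8% in controls. The right ends of Krt86, Krt81 and Krt4 were at 9.12%, 15.7% and 19.1% in knockouts and 12.03%, 11.8% and 18.1% in controls. At Krt1 the left end averaged 10.9% in knockouts and 24.1% in controls, and the right end 46.9% in knockouts and 90.8% in controls.

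At the other genes without a listed start, both ends were mostly high in controls. The ends of Krt16 averaged 49.2% (left) and 48.9% (right) in knockouts and 89.4% and 91.4% in controls, and those of Krt17 49.0% and 46.1% in knockouts and 89.9% and 88.9% in controls. At Krt6a the right end was lower than the left, with 30.9% in knockouts and 61.3% in controls, likewise at Krt6b with 21.3% in knockouts and 29.2% in controls, and at Krt80 with 31.4% in knockouts and 76.9% in controls. Krt88 was intermediate at both ends, with 30.3% (left) and 18.0% (right) in knockouts and 59.1% and 33.7% in controls. At Krt35 the right end averaged 27.2% in knockouts and 61.5% in controls, and the left end 46.4% in knockouts and 91.1% in controls. Krt222, which shares a window with the gene Smarce1, was low at both ends, with 18.4% and 7.0004% in knockouts and 24.0% and 15.1% in controls.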

How the data were processed

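Male germ cells of 2 Np95fl/fl:Stra8-Cre and 2 Np95fl/fl preparations were analysed. Whole-genome bisulfite sequencing used the PBAT method, per the labels' protocols, and the genome build was mm10 per the submitters' processing notes. The deposited table gives the percent of methylated reads at each cytosine of a CpG and sample, with both strands listed. The title of the deposited table names 10 reads. With aligner, caller and reads per value not given in the sources used here, all values had the same weight and no interval for counting error was computed.

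A region's level was the mean over its cytosines with a value in all 4 samples, and a region needed at least 5 such CpGs. Gene positions and promoter sequences came from RefSeq tables on GRCm38.p6. The test was limma (version 3.58.1 in R 4.3.3, trend and robust options) on log2((m + 0.01)/(1 − m + 0.01)), where m is the level as a fraction, over all regions of a kind and with genotype only. The prior degrees of freedom were infinite for 95.68% of windows and 94.96% of bodies, so that their p-values rest on a pooled variance, and had a median of 9.52 for starts, where each region adds 2. Calls needed a Benjamini-Hochberg adjusted p under 0.05 and at least 10 points. Single values were compared by an exact two-sided permutation test over samples. Differences are knockout minus control. Alternatives were another scale, no pooling of variance, centring, other minimums, window sizes and start windows, the replicate number as a block, and each sample left out. Tables were handled with pandas 2.3.3 and NumPy 2.4.6 under Python 3.11.15 and with the data.table package (1.17.8), and figures drawn with Matplotlib 3.10.9.

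The intervals and gene lists were chosen with earlier results of these data known. Named with all values were 23 keratins taken from known filament partners and tissues, the 3 gene bodies and the 3 windows with the greatest and the smallest loss in each interval, and any region called higher. Further genes were named to describe their list or as exceptions, after their values were seen. Whether replicate numbers pair the samples is not settled. Over 455671 windows the replicate 1 minus 2 difference in knockouts and in controls correlated with r = 0.0398. Such a correlation cannot show a shift common to all windows, and replicate 2 had the higher mean over all windows in both genotypes.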

Additional observations from a re-analysis of the deposited data

How the results depend on the processing

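The mean difference of each interval and its comparisons with the flanks in loss and in retained share kept their sign under all alternatives run, while the knockout levels inside and beside the clusters did not keep their order. Leaving out each sample in turn gave differences of -41.2 to -36.6 points for the type I and -40.3 to -36.5 points for the type II interval. It gave -7.36 to -6.64 and -7.11 to -6.62 points for the loss against the flanks, and -2.75 to -2.23 and -4.13 to -3.91 points for the retained share. The same sets gave 247 to 249 type I and 135 to 137 type II windows called lower, 42 to 43 and 26 bodies, and 29 to 30 and 7 to 10 starts, with 0 called higher except 1 type I start without knockout replicate 2, Krt26. Centring each sample on its median left 0 windows lower and 42 type I and 29 type II windows higher, and 23 and 5 bodies lower with 6 and 1 higher. Over all regions it left 0.322% of windows lower and 22.4% higher, and 12.4% of bodies lower and 23.7% higher. By construction it removes the loss shared by all regions. Under centring the sign in points was reversed for 23 of the 72 bodies. These included Krt1 (4.63 points), Krt10 (7.41), Krt8 (7.75), Krt18 (1.51), Krt19 (3.11), Krt4 (4.09), Krt12 (9.28), Krt25 (11.3), Krtap4-16 (22.1), Krtap4-1 (22.8), Krt81 (8.05) and Krt87 (14.3). It was also reversed for 223 of the 395 windows, among them those at Krt25 (40.1), Smarce1 (41.4), Gm11560 (42.8), Krt7 (33.7), Krt8 (35.7) and Krt87 (39.1). Such turns are common in the whole series, where the median difference after centring was also positive. It was 2.81 points over all windows and 0.822 points over all bodies. The share of all regions so reversed was not counted. Larger windows of 10 kb gave 129 and 70 calls and smaller ones of 2 kb gave 556 and 316, as their number sets. Without the first 1000 bp of genes 28 type I bodies were called, since short genes drop out. With no minimum difference 1 body, that of Krtap17-1, was higher. Starts of 500 bp on each side gave 5 type II calls, and the cause was not tested. With each start's own spread 0 starts were called in either interval, where only 2 residual degrees of freedom remain. The replicate number as a block gave 248 and 136 windows, 43 and 26 bodies and 30 and 10 starts called lower, and differences of -7.005 and -6.87 points for the loss and -2.48 and -4.02 points for the retained share against the flanks. It changed 0 calls among the 395 windows, 72 bodies and 54 starts. The depth of single values is unknown and limits what can be said of short genes and of low levels.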
